A study of Homo sapiens with 6 samples.

Results

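LEF1, FZD8, SFRP1 and WNT5A belong to Wnt signalling and had higher array signals in colon fibroblasts after treatment with sonic hedgehog (SHH). WNT5A is a secreted ligand, FZD8 a receptor, SFRP1 a secreted inhibitor and LEF1 a transcription factor of the nuclear end of the pathway. The signal of LEF1 was 2.08 times the untreated level, that of FZD8 1.51 to 1.69 times, that of SFRP1 1.51 to 1.65 times and that of WNT5A 1.19 to 1.26 times. These values cover the probe sets that could be named for each gene. A probe set is a group of short array probes read out together as 1 signal. The 4 genes, of 1643 with a name here, were found by symbol in the list that the authors deposited for p of 0.05 or less. This gave 8 of the 54613 probe sets on the arrays, 3 for SFRP1, 2 each for FZD8 and WNT5A and 1 for LEF1. The members were thus selected on the authors' p-values of the SHH comparison itself. Their differences are given below as a description with no test.

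The data are 6 Affymetrix arrays, hybridised with RNA of CCD-18Co, an established line of human colon fibroblasts that the submitters also call myofibroblasts. The medium of all cultures held 0.1% bovine serum albumin. The 3 biological replicates of the treated group received SHH, the secreted hedgehog ligand, at 1 ug/ml over 72 h, and the other group is 3 replicates without it, titled untreated and called vehicle in the submitters' readme. How long the untreated cultures ran is not stated. A single line, dose and time were used. Whole cultures were measured, so more cells that express a gene and more RNA per cell cannot be told apart.

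Wnt ligands are secreted lipid-modified glycoproteins that bind the cysteine-rich domain of Frizzled receptors. In the canonical branch this stabilises beta-catenin, which joins the TCF and LEF factors on DNA and switches on their targets. Other branches act through the cytoskeleton and planar cell polarity and use ligands such as WNT5A. In the gut, fibroblasts beneath the epithelium are a source of Wnt ligands and of their secreted inhibitors, and they are also the cells that receive hedgehog signals from the epithelium.

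Median signals of the arrays lay between 94.4 and 111, and precision is limited by how few arrays there are. The hedgehog receptor PTCH1, a classical target of the pathway, gave signals of 1306 to 1455 on the untreated and 8292 to 9095 on the SHH arrays. GLI1, the standard transcriptional readout of hedgehog signalling, gave 49.7 to 151 and 592 to 771. Its untreated level was uneven, with a coefficient of variation of 49.0%, and untreated replicate 2 was below that array's median of 105. With limma, a linear model fitted across all probe sets, the adjusted p was 0.0249 for PTCH1 and 0.110 for GLI1. Of 15 markers of fibroblasts and myofibroblasts, 6 had a name here, COL3A1, DCN, PDGFRB, S100A4, FAP and POSTN. Only probe sets with p of 0.05 or less in the authors' SHH comparison could be named, so the other 9 were not read. The lowest signal of these 6 on any array was 160. Their summed signal was 11463 to 12318 on the untreated and 7089 to 7965 on the SHH arrays. All 6 named markers were lower with SHH by their named probe sets, at 0.506 to 0.725 of the untreated mean. This says nothing of the 9 without a name, nor of probe sets of these 6 genes that could not be named. COL3A1 and DCN each rested on 1 named probe set, with untreated and SHH means of 395 and 243 for COL3A1 and 460 and 240 for DCN. Of 27 markers of other cell types 9 had a name, and their near-equal sums, 21305 to 23563 and 21925 to 24067, cover differences both ways. The ratio of the SHH to the untreated mean was 1.94 for MYH11 and 0.815, 0.629 and 0.513 for CNN1, RGS5 and KCNJ8, markers of smooth muscle and pericytes. It was 1.67 for the leukocyte marker CD14, 1.60 for the neural UCHL1 and 0.747 for the epithelial KRT18. For ANO1 and KIT, markers of interstitial cells of Cajal, it was 1.31 and 0.735. A dimmer named probe set of MYH11 gave 1.37, and a dimmer one of ANO1 gave 1.40 with overlapping groups. Each marker was read by its brightest named probe set. Limma called 0 of these 15 markers after adjustment (0.123% of all probe sets) and 14 at an unadjusted p under 0.05 (9.72% of all). The 15 had names only because of their p in this comparison, so nothing is read from these counts. The lowest signal among the 15 was 102, that of CD14 on untreated replicate 2, below that array's median of 105. No detection calls were used, so these signals are not shown to be above background. No endothelial marker had a name. The part of these markers in the results was not tested.

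The ligand WNT5A had the smallest difference of the 4 genes. On its brighter probe set, 205990_s_at, the untreated arrays gave signals of 6641, 6492 and 7303 and the SHH arrays 8250.2, 7693 and 8316. The groups did not overlap, but the highest untreated array and the lowest SHH array were only 1.05-fold apart. The group means were 6812 ± 432 and 8086 ± 342 (SD, n = 3), and the log2 difference was 0.25 ± 0.11. Here and below the ± of a log2 difference is the moderated standard error of limma (n = 3 per group), a linear model fitted across all probe sets, on log2(intensity + 16). On 213425_at the untreated arrays gave 3799, 3831 and 3641 and the SHH arrays 4557, 4889 and 4722. This probe set had tighter replicates, with a coefficient of variation of 2.71% untreated and 3.51% with SHH, and a log2 difference of 0.33 ± 0.10. Both probe sets thus lay in the same direction, with a gap between groups of 1.19-fold on the second.

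WNT5A is annotated by RefSeq (GRCh38.p14) on the minus strand of chromosome 3 with 2 start sites. Whether the arrays tell transcripts from these 2 starts apart was not examined, so both are given. The 250 bases before each start are shown, at chr3:55487307-55487556 (upstream start) and chr3:55481399-55481648 (downstream start), 5′ to 3′ on the gene strand:
WNT5A upstream start: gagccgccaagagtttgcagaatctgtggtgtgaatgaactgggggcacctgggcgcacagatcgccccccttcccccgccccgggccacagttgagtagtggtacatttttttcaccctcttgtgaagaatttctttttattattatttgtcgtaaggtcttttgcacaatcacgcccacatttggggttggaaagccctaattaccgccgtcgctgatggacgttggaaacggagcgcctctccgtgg
WNT5A downstream start: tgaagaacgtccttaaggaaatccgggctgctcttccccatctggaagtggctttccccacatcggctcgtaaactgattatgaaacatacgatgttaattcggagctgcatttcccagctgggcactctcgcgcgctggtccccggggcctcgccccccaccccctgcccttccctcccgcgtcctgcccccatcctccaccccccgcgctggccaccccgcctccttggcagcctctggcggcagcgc

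The receptor FZD8, a seven-pass membrane protein, was read by a bright and a dim named probe set. The bright one, 227405_s_at, gave 1179, 1209 and 1249 on the untreated arrays and 1765, 1845 and 1889 on the SHH arrays. All SHH arrays were above all untreated arrays, by at least 1.41-fold between the nearest of each group. The means were 1212 ± 35.4 and 1833 ± 63.1 (SD, n = 3) and the log2 difference was 0.59 ± 0.10. The dim one, 224325_at, gave 514, 378 and 339 untreated and 722, 578 and 780.3 with SHH. Here untreated replicate 1 was high and SHH replicate 2 was low within its group, which brought the groups within 1.13-fold of each other without overlap. Its log2 difference of 0.75 ± 0.20 was larger than that of the bright probe set and its SE was larger as well, so the interval of 1 SE around each covered part of the other.

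FZD8 lies on the minus strand of chromosome 10. Its 250 bases before the start, at chr10:35642297-35642546 (GRCh38.p14), are shown for the TATAAA in capitals, the core of a TATA box, at positions -29 to -24 from the start:
FZD8: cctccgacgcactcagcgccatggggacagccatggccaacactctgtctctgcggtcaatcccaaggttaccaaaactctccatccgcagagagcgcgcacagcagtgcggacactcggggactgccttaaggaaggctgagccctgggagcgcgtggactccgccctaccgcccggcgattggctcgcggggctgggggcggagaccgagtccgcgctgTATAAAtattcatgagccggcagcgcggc

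The inhibitor SFRP1 carries a Frizzled-like cysteine-rich domain by which it binds Wnt ligands outside the cell. It had the most named probe sets, and all 3 gave log2 differences between 0.59 and 0.72. Probe sets of the gene with a higher p in the authors' comparison could not be named. On 202036_s_at, the brightest, the untreated arrays gave 1242, 1179 and 1134 and the SHH arrays 1844, 1709.7 and 1803. The groups were 1.38-fold apart at their nearest arrays, with means of 1185 ± 54.2 and 1786 ± 68.8 (SD, n = 3) and a log2 difference of 0.59 ± 0.10. On 202037_s_at the values were 1013, 997 and 1034 untreated and 1683, 1631 and 1722 with SHH. This was the tightest of the 8 probe sets, with a coefficient of variation of 1.86% untreated and 2.70% with SHH, and its log2 difference was 0.72 ± 0.10. The dim 202035_s_at gave 236, 324 and 247 untreated and 446, 458 and 391 with SHH, and untreated replicate 2 was the highest of its group there but not on the brighter pair. Its log2 difference was 0.66 ± 0.16, between those of the other named probe sets of the gene.

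The transcription factor LEF1, a DNA-binding partner of beta-catenin and itself known as a Wnt target, had the largest difference of the 4 genes. Its named probe set, 221558_s_at, gave 544, 502 and 661 on the untreated arrays and 1244, 1102 and 1197 on the SHH arrays. Every SHH array was at least 1.67-fold above every untreated array, the widest gap among the 8 probe sets. The means were 569 ± 82.0 and 1181 ± 72.6 (SD, n = 3) and the log2 difference was 1.04 ± 0.14. The untreated arrays varied more, with a coefficient of variation of 14.4% against 6.14% with SHH, and untreated replicate 3 was the highest of them. LEF1 rests on a single probe set, so no second reading of it is given.

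LEF1 lies on the minus strand of chromosome 4. Its 250 bases before the start, at chr4:108166302-108166551 (GRCh38.p14), are shown because LEF1 had the largest difference:
LEF1: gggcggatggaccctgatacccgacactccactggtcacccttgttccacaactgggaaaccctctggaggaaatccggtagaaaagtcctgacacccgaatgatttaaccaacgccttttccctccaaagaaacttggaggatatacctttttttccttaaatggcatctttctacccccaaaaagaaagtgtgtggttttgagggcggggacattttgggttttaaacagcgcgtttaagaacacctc

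**Figure D1:**
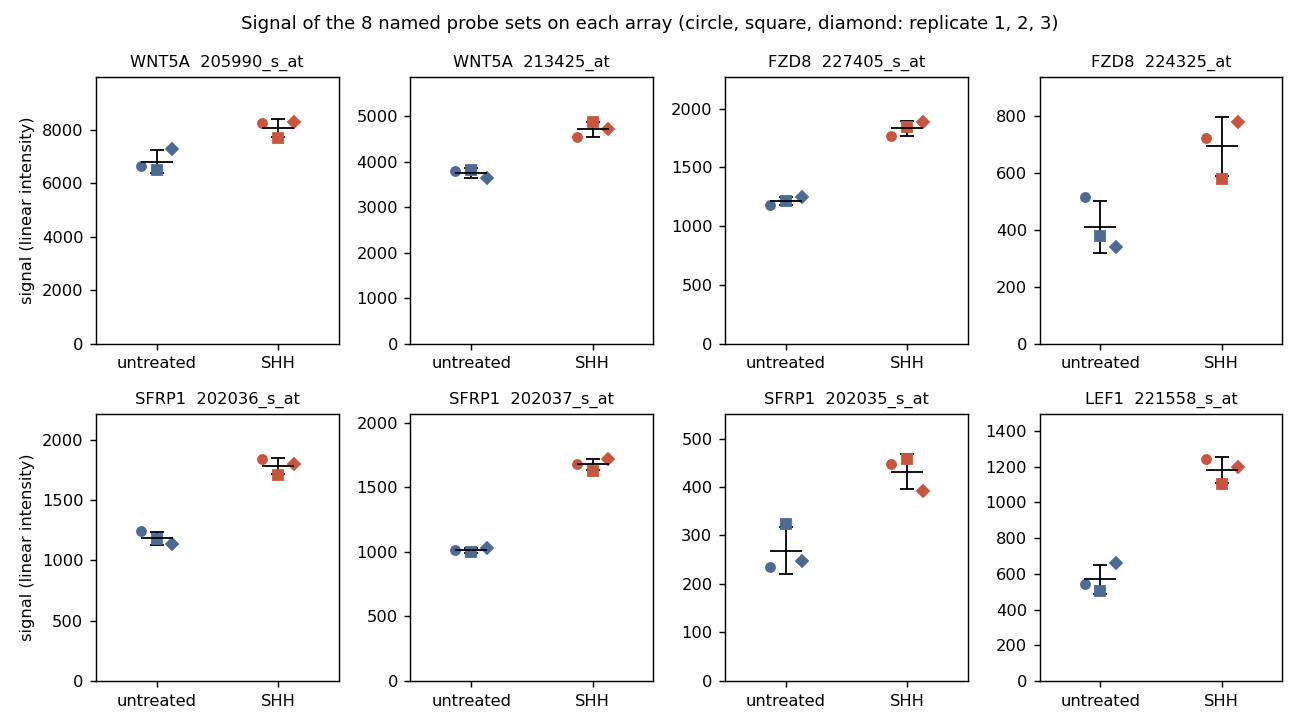
Signal on a linear intensity scale (vertical axis, from 0) on each of the 6 arrays for the 8 probe sets, with the mean and SD of 3 replicates per group. In every panel the 3 SHH arrays are above the 3 untreated arrays, and the nearest arrays of the groups are 1.67-fold apart for LEF1, the widest ratio, and 1.05-fold for 205990_s_at of WNT5A, the narrowest.

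The 4 windows of LEF1, FZD8 and WNT5A were read because the genes' signals were higher together. They cover 3 of the 4 genes, and the window of SFRP1 was not analysed here. The consensus of the GLI factors, the transcription factors of hedgehog signalling, was searched as GACCACCCA on both strands and occurred in none of the 4, nor did a match with up to 1 mismatch. Over 35116 RefSeq windows of the same length, 0.199% hold the exact letters and 5.81% a match with up to 1 mismatch. The TCF and LEF core was searched as CTTTG followed by any pair of A and T bases, on both strands. None of the 4 windows held it, against 11.96% of all windows. TATAAA, searched on the gene strand after the sequences had been read, occurred in the FZD8 window and in 6.80% of all. The windows also differed in composition, with a GC content of 47.6% for LEF1, 52.8% and 64.4% for the upstream and downstream start of WNT5A and 65.2% for FZD8, where the median window has 58%. FZD8 held 24 CG pairs and LEF1 8, and the median window 11. These letters describe 250 bases only and say nothing of binding.

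Relative to its untreated mean, LEF1 reached 2.19, 1.94 and 2.10 on SHH replicates 1, 2 and 3. The probe sets of FZD8 and SFRP1 lay between 1.41 and 1.90 on the SHH arrays, and those of WNT5A between 1.13 and 1.30. On every SHH array LEF1 was thus highest and both WNT5A probe sets were lowest of the 8. No array was low or high for all members together. SHH replicate 2 was below its group's mean on 5 of the 8 probe sets, SHH replicate 1 on 2 and SHH replicate 3 on 1, while the untreated replicates were below on 5, 6 and 4. The log2 deviations of single arrays from their group's mean lay between -0.25 and 0.34, and both ends came from the dim FZD8 probe set. The brightest probe sets of FZD8 and SFRP1 had nearly the same log2 difference, 0.59 for both, each with an SE of 0.10. That of LEF1 was 0.45 above that of FZD8, and that of WNT5A 0.34 below that of SFRP1. None of these differences between genes was tested, because the comparison that chose the genes gave them.

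**Figure D2:**
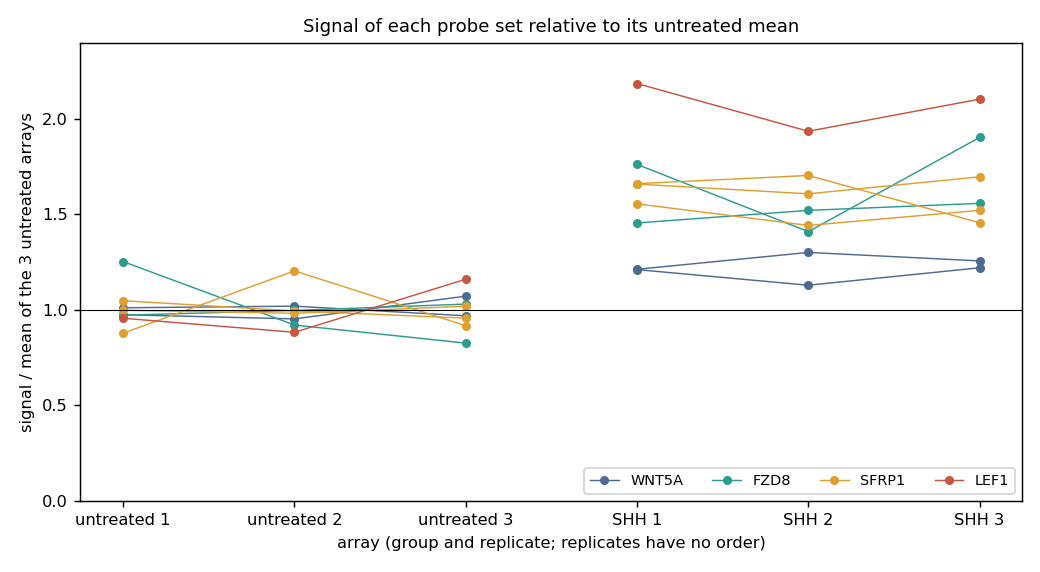
Signal of each probe set divided by its mean over the 3 untreated arrays (vertical axis, a ratio) on each array, with lines joining the replicates of a group for the eye alone. LEF1 lies between 1.94 and 2.19 on the SHH arrays, FZD8 and SFRP1 between 1.41 and 1.90, and WNT5A between 1.13 and 1.30.

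In the authors' deposited table, a Cyber-T comparison, the p-values of the 8 probe sets ran from 0.00194 for LEF1 to 0.0405 for 205990_s_at of WNT5A, the member nearest to the threshold of 0.05, and the q-values from 0.524 to 0.999. Of all probe sets 4.41% are in that table and 2.26% are in it as higher with SHH. Probe sets of these genes with a higher p are unnamed in the files and were not analysed here, so no values just outside the threshold are given. By limma with Benjamini-Hochberg adjustment over all 54613 probe sets, 0 of the 8 passed an adjusted p of 0.05, where 67 of all probe sets (0.123%) passed, 45 of them higher with SHH (0.0824%). At an unadjusted p under 0.05 limma had 7 of the 8, and 3.80% of all probe sets were higher at that level. Limma with an intensity trend, which lets the expected spread follow the signal, called 5 of the 8 (1.01% of all probe sets were called as higher), namely 1 of WNT5A, 1 of FZD8, 2 of SFRP1 and that of LEF1. Over the 27307 probe sets at or above the median signal 4 of the 8 were called (1.19% of these were called as higher), and with a pseudocount of 64 in place of 16 the count was 2 of 8 (0.353%). All 8 had every SHH array above every untreated array, as did 6.97% of all probe sets. Since the p-values of the same comparison chose the members, nothing is read from these counts. The median log2 difference of the 8 was 0.63 and that of all probe sets -0.05. Of 821 named genes that were higher by their brightest probe set, with a median of 0.47, LEF1 had rank 115, FZD8 284, SFRP1 288 and WNT5A 795.

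**Figure D3:**
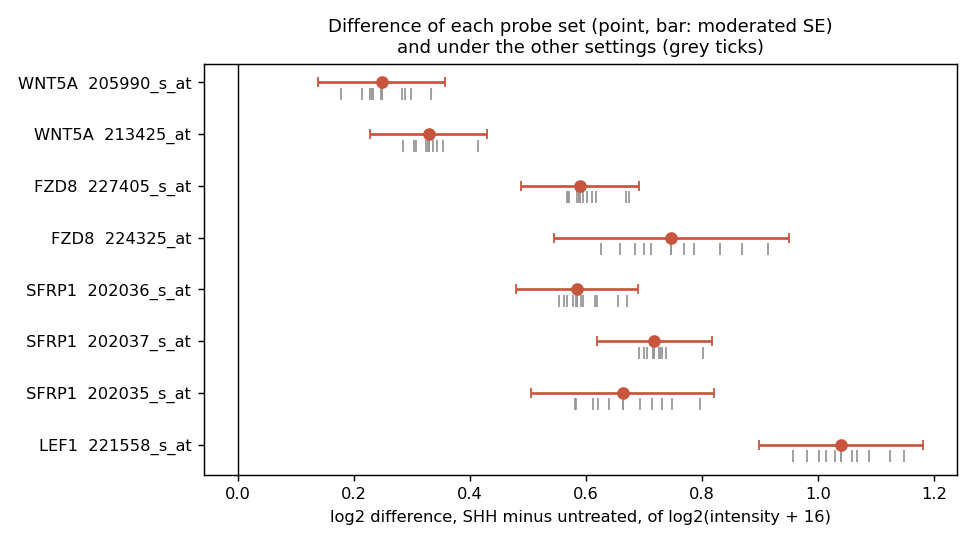
Log2 difference of log2(intensity + 16), SHH minus untreated (horizontal axis), for the 8 probe sets, as points with limma's moderated SE, and as grey ticks the values under the other settings. The points run from 0.25 for WNT5A to 1.04 for LEF1, and every tick is above 0.

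The rest of the pathway was read from a list of 102 Wnt genes by role, of which 17 had a named probe set and 85 did not. Beside the 4 genes, 13 others had a name, 7 higher and 6 lower with SHH by the brightest probe set, with a median log2 difference of 0.26. Limma called 0 of the 13 after adjustment and 9 at an unadjusted p under 0.05, a level that 9.72% of all probe sets passed in either direction. With an intensity trend 6 passed, 3 higher (1.01% of all) and 3 lower (0.850% of all). The groups did not overlap in 12 of the 13, 6 with SHH above and 6 with SHH below (10.3% of all probe sets had SHH below). These genes too had names only because of their p in this comparison.

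Of the 19 ligands only WNT10A had a name beside WNT5A. It was dim, at 60.7, 35.7 and 87.6 untreated and 9.49, 6.62 and 16.7 with SHH, below the median of every array and not shown to be above background. Its log2 difference was -2.38, -1.48 and -0.72 with pseudocounts of 1, 16 and 64, so it has no settled size. Among the 16 receptors and co-receptors, FZD4 and FZD6 were named beside FZD8, and all 3 Frizzled genes were higher. FZD4 had means of 1441 ± 208 and 2041 ± 13.0 (SD, n = 3) and a log2 difference of 0.51 ± 0.14, and FZD6 had means of 2871 ± 321 and 3540 ± 11.4 (SD, n = 3) and a difference of 0.31 ± 0.13. A dim second named probe set of FZD4 gave 45.4, 20.9 and 33.2 untreated, below the array medians, and 92.9, 137 and 117 with SHH. On SHH replicate 1 it was also below that array's median of 109. Its log2 difference was 1.44 ± 0.23, and its signal was not shown to be above background. LGR4, a receptor for R-spondins, which enhance Wnt signalling, was lower, at -0.56 ± 0.13, and was the only named gene of the 9 of its arm.

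The named inhibitors lay in opposite directions. SFRP1 was higher, while DKK1, a secreted antagonist that binds the LRP co-receptors, had signals of 791, 738 and 727 untreated and 482, 547 and 476 with SHH. All SHH arrays of DKK1 were below the untreated arrays, with a log2 difference of -0.57 ± 0.11. TNFRSF19, a receptor of the tumour necrosis factor receptor family, lay at -0.83 ± 0.10. Of the cytoplasmic arm GSK3B, the kinase that marks beta-catenin for destruction, had a name. All 3 of its probe sets were higher, with log2 differences of 0.52 ± 0.12, 0.67 ± 0.12 and 0.78 ± 0.15.

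Among the 11 nuclear factors, TLE2, a corepressor that binds TCF and LEF factors, was named beside LEF1. Its arrays gave 816, 633 and 931 untreated and 1127, 1229 and 909.6 with SHH, so the groups overlapped (0.46 ± 0.20). Of 8 common Wnt targets, the transcription factor MYC lay at 0.38 ± 0.11, and the hyaluronan receptor CD44 at 0.29 ± 0.14 by the brightest of its 6 named probe sets, all higher, whose differences reached 0.76. In the planar polarity arm the formin DAAM1, which binds Dishevelled, was lower on all 3 of its named probe sets, at -0.70 ± 0.14, -0.73 ± 0.13 and -0.70 ± 0.19. DAAM2, its relative, lay at -0.33 ± 0.13, and the small GTPase RHOA at 0.26 ± 0.14.

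**Figure D4:**
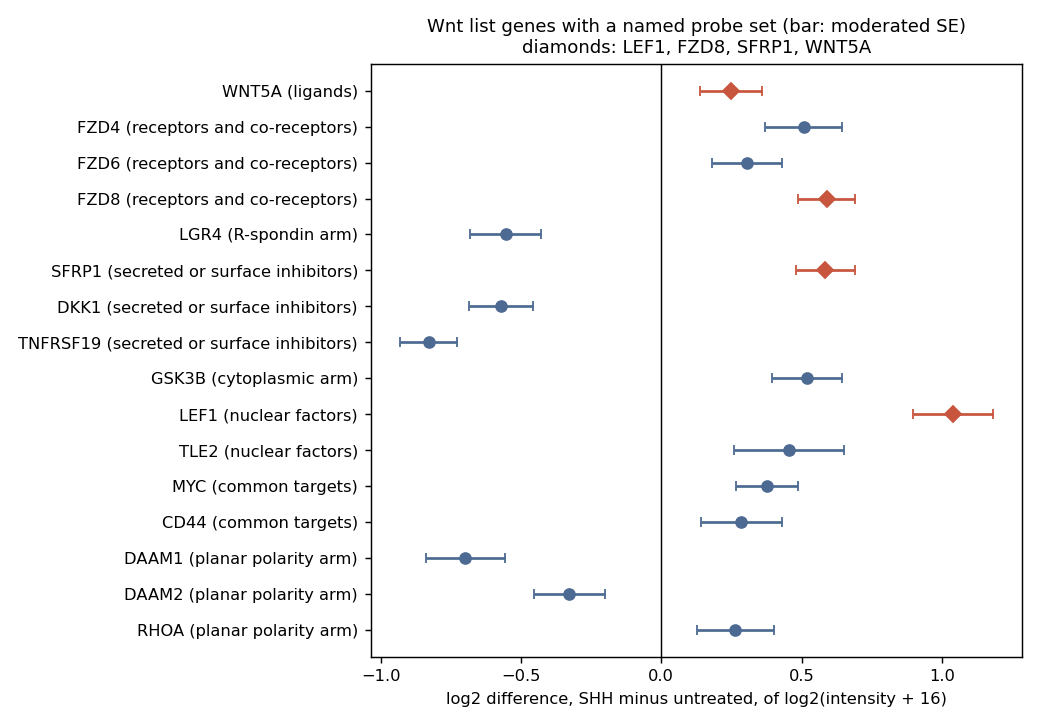
Log2 difference of log2(intensity + 16), SHH minus untreated (horizontal axis), with limma's moderated SE, for 16 of the 17 Wnt list genes that have a named probe set, each by its brightest, ordered by role; WNT10A, below every array's median, is left out. Of those plotted LEF1, at 1.04, is the highest and TNFRSF19, at -0.83, the lowest, and DKK1 and TNFRSF19 lie opposite to SFRP1.

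The genes most like each member were sought among 1639 other named genes by the root mean square difference between log2(intensity + 16) profiles over the 6 arrays, each centred on its own mean. A small value means that both the size of the difference and the deviations of single arrays were alike. For LEF1 these were NSG1 (0.090), the angiogenic factor VEGFA (0.10) and the growth factor PDGFC (0.11), with log2 differences between SHH and untreated of 0.99, 0.98 and 0.93. For FZD8 they were the small GTPase RHOB (0.027) and the genes listed as FLJ10312 (0.034) and FLJ10747 (0.043). For SFRP1 they were RGS10 (0.027), the gene listed as LOC253981 (0.028) and the sphingosine 1-phosphate receptor S1PR3 (0.037), and for WNT5A the lipid phosphatase PLPP1 (0.021), the insulin receptor substrate IRS2 (0.034) and the zinc transporter SLC30A5 (0.037). Among the 4 genes themselves, FZD8 and SFRP1 were closest, at 0.080, and LEF1 and WNT5A farthest apart, at 0.40. All profiles come from the same 6 arrays and all candidates were named by their p in this comparison, so likeness of this kind is a description of these arrays.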

How the data were processed

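Per the labels' protocols, biotin-labelled cRNA of CCD-18Co cells was hybridised to the 6 arrays, with Affymetrix's method. The deposited value table gives 1 linear intensity per probe set and array, made by the authors. The arrays' 2% trimmed means lie between 498.1 and 498.2, so the arrays may have been scaled to each other. Not given in the sources used here are the array design and how probes were summarised. The authors' deposited Cyber-T table holds log2 fold changes, p-values, q-values and t statistics, a score with no fixed range. Its direction, untreated minus SHH per the file headers, was turned here. Its array columns hold the values of the value table.

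Gene names came from the 2411 probe sets that the authors listed for p of 0.05 or less: 2148 took a name, updated through RefSeq synonyms (GRCh38.p14), for 1643 genes. Only these could be named. The brightest named probe set stands for a gene where 1 value is given.

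Limma 3.58.1 in R 4.3.3 (lmFit, eBayes, 2-sided, Benjamini-Hochberg over 54613 probe sets, threshold 0.05) was run on log2(intensity + 16) without a filter, and tested on simulated data. This scale understates changes of dim probe sets. Groups and replicate numbers came from the titles. The design text calls only the SHH replicates biological and names no separate cultures, so p-values measure the spread between these samples, which may be technical. Same-numbered samples did not deviate together (correlations of 0.010, 0.019 and -0.015), so no pairing was used. The 4 genes, the Wnt list, the markers and the motifs were chosen with earlier results of these data known; the text names all members, every named Wnt list gene, the 3 genes most like each member, and PTCH1 and GLI1. No batch is recorded. Python 3.11.15, pandas 2.3.3, scipy 1.17.1 and matplotlib 3.10.9 were used.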

Additional observations from a re-analysis of the deposited data

How the results depend on the processing

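All 108 log2 differences of the 8 probe sets under the other settings were above 0, and 101 of them moved by no more than the SD between replicates. Every SHH array was above every untreated array in the 8, so only median centring and quantile normalization could have turned a sign. The intensity trend, the replicate block and the median signal filter leave the differences themselves unchanged. With each array centred on its median, the value of the brightest probe set was 0.33 for WNT5A, 0.67 for FZD8 and 0.67 for SFRP1. The mean of all named probe sets in place of the brightest gave 0.67 for FZD8 and 0.66 for SFRP1. Without any 1 replicate the brightest probe sets ranged from 0.21 to 0.30 for WNT5A, 0.57 to 0.62 for FZD8, 0.55 to 0.62 for SFRP1 and 0.96 to 1.15 for LEF1. Over all probe sets limma's 67 calls became 0 with a pseudocount of 1 (5009 below an unadjusted p of 0.05), 295 with a pseudocount of 64, 555 over probe sets at or above the median signal, 34 with arrays centred on their medians, 1014 with an intensity trend, 0 with the replicate block (4746 unadjusted) and 0 without any 1 of the 6 arrays (4411 to 5180 unadjusted). The members' count of 0 moved to 2, 4 and 5 with the pseudocount of 64, the median signal filter and the intensity trend. The Wnt list's count of 0 moved to 2, 6 and 9 of 17 genes, but the median signal filter left out WNT10A, so fewer genes were tested there. Both counts stayed at 0 with the replicate block, where 6 of the 8 member probe sets had an unadjusted p under 0.05. They also stayed at 0 without any 1 array, where 6 to 7 of the 8 had such an unadjusted p. Allowing 1 mismatch left the GLI matches at 0 in the windows of LEF1, FZD8 and WNT5A. The cause of these shifts in count was not tested. The number of arrays limits what could be called, and no detection calls were used, so the signal over background of the dim probe sets is not given.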
